A study of Mus musculus with 4 samples.

Results

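The replication-dependent histone genes were taken as the rows of the expression tables whose symbols begin with Hist1h, Hist2h, Hist3h or Hist4h. They numbered 68 of the 24411 listed genes, with 6 of class H1, 18 of H2A, 19 of H2B, 12 of H3 and 13 of H4. By cluster, 54 lie in Hist1, 10 in Hist2, 3 in Hist3 and 1 in Hist4. Their levels were compared between late two-cell mouse embryos cultured with 10074-G5, a small molecule that keeps the transcription factor MYC from pairing with its partner MAX, and embryos cultured with DMSO. All embryos were of the ICR strain, made by in vitro fertilization, cultured in KSOM medium and collected 36 h after insemination. Treated embryos received 6 µM of the inhibitor from 3 h after insemination according to the sample labels and from 6 h according to the series' design text. Each group had 2 libraries, here DMSO 1 and DMSO 2 and inhibited 1 and inhibited 2, and each library was a pool of 10 embryos. The comparison asked how transcripts of these genes stood under an inhibitor of the pairing of MYC with MAX. The study's methods call the 2 libraries of a group biological replicates. Whether they came from separate cultures is not given in the sources used here, and p-values measure the spread between these pools.

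Cells need large amounts of histone when DNA is copied, and the replication-dependent genes supply it in S phase. Most of these genes have no introns, and their mRNAs normally carry no poly(A) tail. The mRNA ends a few bases after a stem-loop that the stem-loop binding protein SLBP recognises, and the U7 snRNP with the cleavage factors CPSF2 and CPSF3 makes the cut. The core histones H2A, H2B, H3 and H4 build the nucleosome, and H1 binds the DNA that links nucleosomes. Replacement histones come from separate genes with polyadenylated mRNA and are made throughout the cell cycle. The mouse egg stores histone mRNA and SLBP for the first divisions.

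The libraries were made from poly(A)-selected RNA, so they do not measure the whole histone mRNA pool. A change in the amount of histone mRNA and a change in the share of it that is polyadenylated cannot be told apart. The same holds for fewer cells of a type and less RNA per cell. The authors kept reads with a single position in the genome, and many histone genes are near copies of each other.

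The stem-loop was searched by its consensus 3′ of the coding part of the GENCODE transcripts. It was found in 45 of the 68 genes, with 1 transcript searched for each. A wider search, of every transcript over its full length, matched 0.145% of all annotated genes. By class the stem-loop stood in 4 of 6 H1, 11 of 18 H2A, 9 of 19 H2B, 9 of 12 H3 and 12 of 13 H4 genes. Of the 23 genes without a match, 15 have an annotated transcript that ends within 2 bases of the coding part and so holds almost nothing to search. The 5 forms that more than 1 gene carried are shown because none of them is shared between H4 and another class. Capitals mark the 2 arms of the stem and lower case the loop.
25 genes of H1, H2A, H2B and H3: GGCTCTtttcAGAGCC
7 genes of H4: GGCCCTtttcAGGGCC
6 genes of H1, H2B and H3: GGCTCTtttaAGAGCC
2 genes of H4: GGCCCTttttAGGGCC
2 genes of H4: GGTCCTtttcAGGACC
The H2A genes Hist1h2ao and Hist1h2ap carry the first form, and the H4 genes Hist1h4c and Hist1h4d carry the second. The GENCODE annotation continues for at least 100 bases beyond the stem-loop in 23 of the 45 genes. Of these 23, 9 passed the filter on low counts. Of the 22 genes with a shorter end, 9 passed. The transcripts used for counting can end sooner than those of GENCODE, as for Hist1h4d with 368 bases against 1138.

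Core histone genes of a class had similar coding parts. Between pairs of genes of a class, the median identity was 70.6% for H1, 91.5% for H2A, 91.8% for H2B, 97.2% for H3 and 93.9% for H4. The 5 pairs with the same coding part were Hist1h2ao with Hist1h2ap, Hist2h2aa1 with Hist2h2aa2, Hist1h2bq with Hist1h2br, Hist2h3c1 with Hist2h3c2, and Hist1h4m with Hist1h4n. Stretches of 150 bases, the length of 1 read, were compared between GENCODE transcripts. More than 50% of a gene's stretches were also found in another gene for 24 of the 68 genes, and 14 genes shared none. Any annotated gene counted as another gene, also one that is no histone gene. For Hist2h2bb (100%), Hist2h2ab (52.5%) and Hist3h2a (28.0%), none of the sharing genes was among the 68. For 9 genes the RefSeq accession used for counting is placed at a second position. How the authors' counting divided reads between such copies is uncertain, and values of single genes in these pairs carry that limit.

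**Figure D1:**
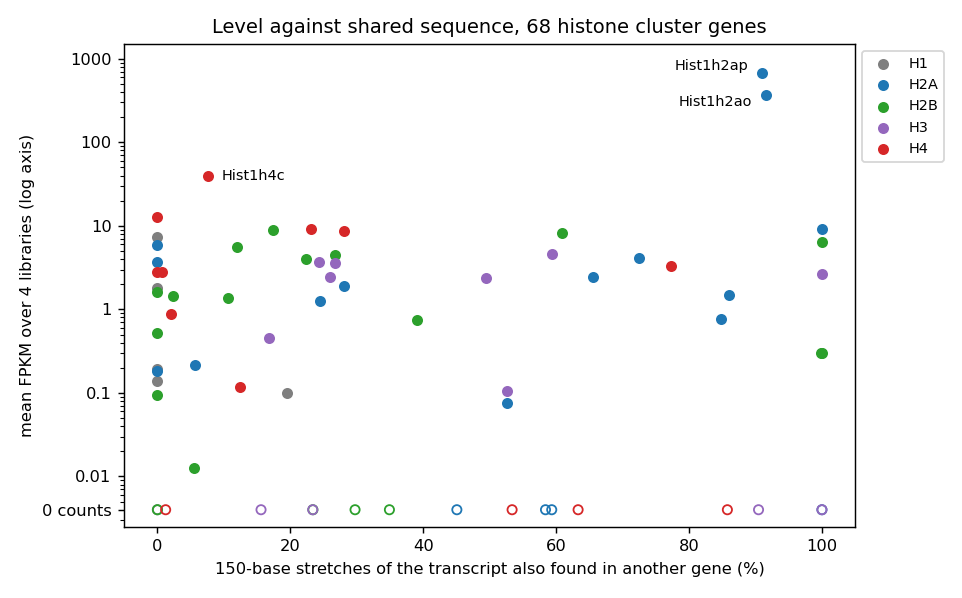
Mean level of each of the 68 genes over the 4 libraries, in FPKM on a log axis. The other axis is the percentage of 150-base stretches of its GENCODE transcript that another gene also holds. Levels rest on the transcripts used for counting, which can be shorter, as for Hist1h4c with 375 bases against 820. Filled points are coloured by class and open points mark the 17 genes at 0 in every library. Hist1h2ap and Hist1h2ao, at 91.0% and 91.5% shared sequence, lie at 683 and 368 FPKM, and Hist1h4c is the next at 39.6 FPKM.

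Hist1h2ao and Hist1h2ap lie on chromosome 13 in a mirrored arrangement, at chr13:21810465-21810944 on the plus strand and chr13:21833026-21833507 on the minus strand (GRCm38, the build mm10), with 22081 bases between them. Each faces an H2B gene, Hist1h2bq at 267 bases and Hist1h2br at 235 bases, and each is followed by an H4 gene, Hist1h4m or Hist1h4n. The 250 bases before the RefSeq start (GRCm38.p6) are shown for this pair because it held most of the counts, and for Hist1h4c because it was at 0 in DMSO 1 and counted in the other 3 libraries. Capitals mark the CCAAT box, read on either strand as CCAAT or ATTGG.
Hist1h2ao, chr13:21810117-21810366, plus strand: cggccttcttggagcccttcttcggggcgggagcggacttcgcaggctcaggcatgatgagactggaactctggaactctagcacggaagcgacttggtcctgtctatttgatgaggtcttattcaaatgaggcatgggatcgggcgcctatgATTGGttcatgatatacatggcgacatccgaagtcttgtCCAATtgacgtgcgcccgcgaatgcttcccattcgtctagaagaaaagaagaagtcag
Hist1h2ap, chr13:21833476-21833725, minus strand: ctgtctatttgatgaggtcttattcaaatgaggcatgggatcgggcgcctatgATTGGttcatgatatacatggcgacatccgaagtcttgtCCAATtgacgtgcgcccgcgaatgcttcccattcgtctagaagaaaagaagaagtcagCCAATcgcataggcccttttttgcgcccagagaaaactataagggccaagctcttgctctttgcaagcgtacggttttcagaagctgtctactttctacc
Hist1h4c, chr13:23698459-23698708, minus strand: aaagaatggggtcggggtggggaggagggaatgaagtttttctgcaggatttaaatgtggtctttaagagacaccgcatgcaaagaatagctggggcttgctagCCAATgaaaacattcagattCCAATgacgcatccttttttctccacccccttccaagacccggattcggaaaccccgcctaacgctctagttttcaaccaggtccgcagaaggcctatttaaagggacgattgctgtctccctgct
The promoter windows of Hist1h2ao and Hist1h2ap share an unbroken run of 200 of their 300 bases, offset between the annotated starts. Windows of 250 bases before and 50 after the start were given for 62 of the 68 genes. A gene with several windows counted once, with a match if any window held the motif. CCAAT was found for 53 of the 62 genes (85.5%, against 41.1% of all 27025 genes with a promoter). It was found for every such gene of H1, H2A, H2B and H3 and for 3 of 12 of H4. The TATA box TATAAA stood in 35 of 62 (56.5%, against 15.7%). The octamer ATTTGCAT was found for 14 genes, 7 of H2A and 7 of H2B (22.6%, against 1.97%). AAACACA, the AC box of H1 promoters, was found for 5 of 6 H1 genes (83.3%, against 8.22%). The motif CACGTG, to which MYC with MAX can bind, was found for 0 of the 62 genes, against 8.09% of all genes with a promoter. These searches used both strands, and a match describes letters, not binding.

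The library totals ran from 18206584 to 20718690 expected counts, and 3 counts in a library correspond to 0.139 to 0.180 CPM (counts scaled to library size with TMM factors). DMSO 1 stood apart from the other 3 libraries. The summed level of 6 markers of the two-cell embryo, such as Zscan4d and Zfp352, was 630 CPM in DMSO 1 and 2058 in DMSO 2, 2566 in inhibited 1 and 2604 in inhibited 2, with all 6 markers present. The 8 genes stored by the oocyte summed to 1120 CPM in DMSO 1 and to between 2130 and 4181 elsewhere. Markers of cumulus and granulosa cells summed to at most 13.9 CPM with Ptx3, Inha, Amh and Foxl2 at 0, those of sperm and testis to at most 7.7 CPM with Prm1, Tnp2 and Smcp at 0, and those of the later blastocyst to at most 23.6 CPM. The part of this offset of DMSO 1 in the results was not tested, and ratios and medians are also given without DMSO 1.

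Counts given to the replication-dependent genes were few in all 4 libraries, and a single pair of H2A genes was given most of them. Their summed counts were 4070 in DMSO 1, 5557 in DMSO 2, 5260 in inhibited 1 and 5894 in inhibited 2, or 0.0212% to 0.0305% of all counts. Of the 68 genes, 17 were at 0 in every library, 24 had counts below the filter, and 27 were tested, namely 2 of H1, 9 of H2A, 6 of H2B, 5 of H3 and 5 of H4. A gene high in a single group can pass this filter through that group alone. At least 10 counts were reached by 16 genes in DMSO 1, 22 in DMSO 2, 30 in inhibited 1 and 25 in inhibited 2. Among all tested genes this number was 12000, 12774, 12756 and 12843 in the same order, so DMSO 1 was the lowest library there too. A count above 0 was given to 29, 41, 40 and 41 of the 68 genes, where the groups overlapped. The genes at 0 included the germline H1 gene Hist1h1t, and a count of 0 allows up to the 0.139 to 0.180 CPM given above.

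Hist1h2ao and Hist1h2ap encode a canonical H2A. Together they held 92.3% of the counts of the 68 genes in DMSO 1 (95% Wilson interval 91.4% to 93.1%), 87.1% in DMSO 2 (86.2% to 87.9%), 78.2% in inhibited 1 (77.1% to 79.3%) and 83.1% in inhibited 2 (82.1% to 84.0%). The intervals cover counting error only. Of the 150-base stretches of Hist1h2ao and Hist1h2ap, 91.5% and 91.0% are also found in another gene. Besides the pair itself, the sharing genes include other H2A genes such as Hist1h2ad and Hist1h2ag. How far the pair's counts hold reads of such genes was not tested. Both inhibited libraries had a lower share than both DMSO libraries. Hist1h2ap had a level of 610 FPKM (a count scaled to transcript length and library size) in DMSO 1, 814 in DMSO 2, 612 in inhibited 1 and 694 in inhibited 2, and its mean placed it 190th of 24411 genes. Hist1h2ao had 309, 429, 301 and 435 FPKM in the same order and ranked 386th. The difference in FPKM between both genes includes their annotated lengths, 452 bases for Hist1h2ap and 552 for Hist1h2ao. The share of the pair's counts given to Hist1h2ap was 56.5%, 55.6%, 57.4% and 51.3%.

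On the scale of CPM, Hist1h2ap was at 127 and 142 in the DMSO libraries and at 109.6 and 119.9 in the inhibited ones. Both inhibited values lay below both DMSO values, but the difference was small, with a log2 fold change of -0.23 ± 0.34 (SE) and an edgeR adjusted p of 0.759. Hist1h2ao was at 97.7 and 113.8 CPM in DMSO and at 81.3 and 113.7 CPM in inhibited embryos, so the groups overlapped. Its log2 fold change was -0.12 ± 0.37 (edgeR adjusted p = 0.893), and it became 0.012 when libraries were scaled by their totals alone. The genes that face the pair had few counts. Hist1h2bq was given 6.5, 5, 25.4 and 8 counts, and Hist1h2br had the same 4 values. Hist1h4n had 2, 1, 24 and 3 counts, and its copy Hist1h4m had none.

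**Figure D2:**
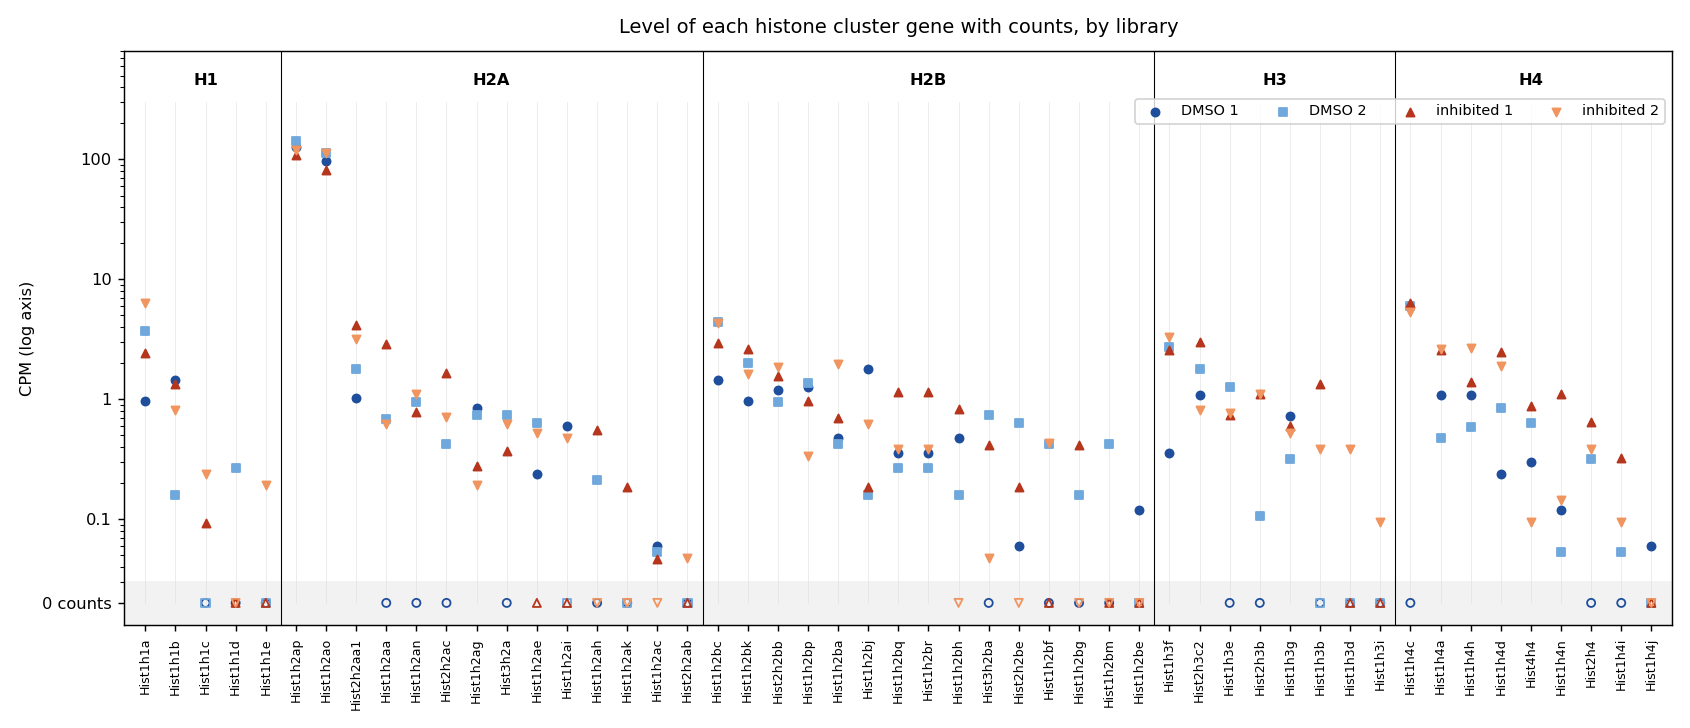
Level of the 51 genes with any count, in CPM on a log axis, ordered by class and mean level, with 1 symbol for each library. Open symbols in the grey band mark libraries at 0. DMSO 1 has a level above 0 for 29 genes and the other libraries for 40 or 41.

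Without this pair, the summed level of the other 66 genes was 18.7 CPM in DMSO 1, 38.1 in DMSO 2, 53.1 in inhibited 1 and 47.6 in inhibited 2. The means were 28.4 ± 13.7 CPM (SD, n = 2) in DMSO and 50.3 ± 3.92 CPM (SD, n = 2) in inhibited embryos, a ratio of 1.77. The ratio was 1.32 without DMSO 1 and 2.69 without DMSO 2. The groups did not overlap, but DMSO 1 and DMSO 2 differed more than DMSO 2 and inhibited 2. With the pair, the sums were 243.6, 294.3, 244.0 and 281.1 CPM and the groups overlapped. No test was made of these sums, since 2 libraries against 2 cannot give an exact two-sided permutation p below 0.333.

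By class, H4 had the largest ratio of group means. Its 13 genes summed to 2.87 CPM in DMSO 1, 9.0 in DMSO 2, 15.7 in inhibited 1 and 13.2 in inhibited 2, a ratio of 2.44 that became 1.61 without DMSO 1 and 5.03 without DMSO 2. H3 genes summed to 2.16, 6.25, 9.42 and 7.35 CPM in the same order, and the H2A genes other than the pair to 2.75, 6.25, 10.9 and 7.49 CPM. The ratio for H3 was 1.99, with 1.34 without DMSO 1 and 3.89 without DMSO 2, and that for the other H2A genes was 2.04, with 1.47 and 3.34. In these classes both inhibited libraries were above both DMSO libraries, and DMSO 1 was the lowest. H2B genes summed to 8.50, 12.4, 13.2 and 11.9 CPM, and H1 genes to 2.40, 4.13, 3.85 and 7.58 CPM. In H2B and H1 the groups overlapped, and the ratios of 1.20 and 1.75 became 1.01 and 1.38 without DMSO 1.

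**Figure D3:**
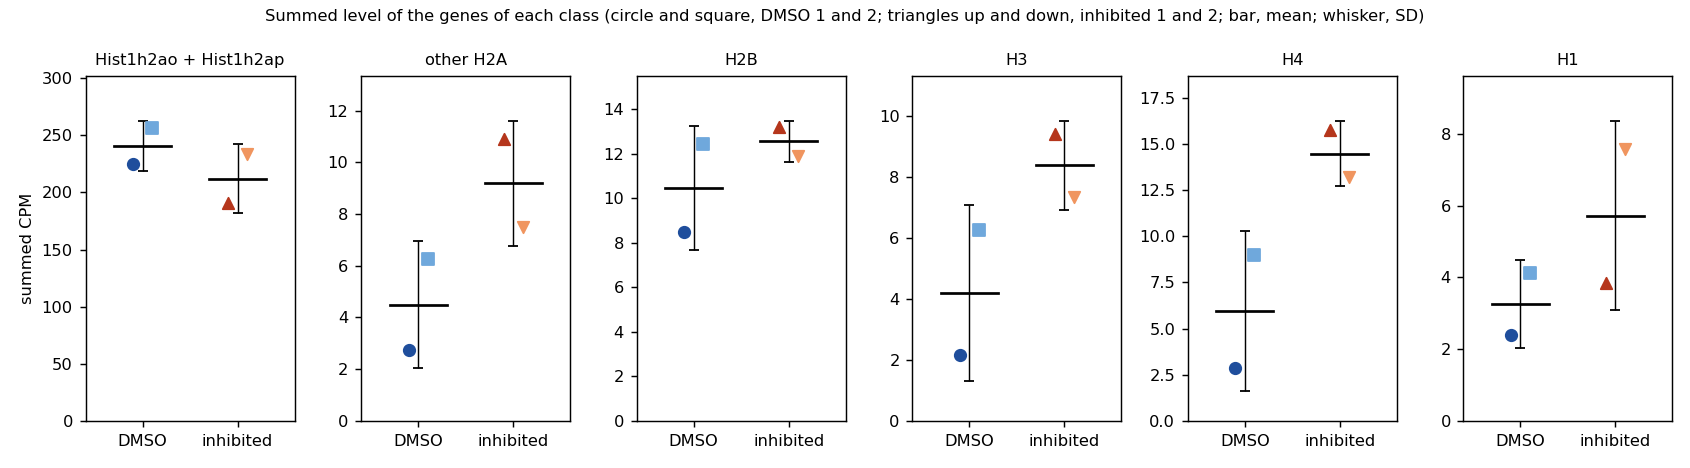
Summed CPM of the genes of each class in each library, with Hist1h2ao and Hist1h2ap apart from the other H2A genes. Each panel has its own axis from 0, bars are means and whiskers are SD of 2 libraries. Both inhibited libraries lie above both DMSO libraries for other H2A, H3 and H4, and the DMSO libraries of H4 lie at 2.87 and 9.0 CPM.

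None of the 27 tested genes passed |log2 fold change| above 1 with an edgeR adjusted p below 0.05. The background was the same, 0.0% of 13549 tested genes higher and 0.0% lower. At an unadjusted p under 0.05, edgeR gave 0 of the 27 genes, against 14.9% of all tested genes. DESeq2 on the same genes also called 0 of the 27, while it called 0.716% of all tested genes higher and 3.54% lower. The smallest adjusted p of a histone gene was 0.384.

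The median log2 fold change of the 27 genes was 0.52, against 0.04 for all tested genes. The fold change was above 0 for 21 genes, against 51.5% of all tested genes. Of the 27 genes, 12 had at least 10 counts in both inhibited libraries but not in both DMSO libraries, and 2 the reverse. The fold change was above 0 for each of the 12, as for 1194 of the 1325 such genes among all tested, and below 0 for both of the 2. Reaching 10 counts in both libraries of 1 group alone favours that direction. The median and the count therefore describe the genes that passed and support no direction. The 9 genes with at least 10 counts in all 4 libraries had 7 values above 0, against 5371 of the 10898 such genes among all tested. The 2 below 0 were Hist1h2ao and Hist1h2ap. The groups did not overlap for 8 genes that were higher in inhibited embryos (background 28.9%) and 3 that were lower (background 28.3%). The share of higher genes was close to the background and that of lower genes under it. The 12 genes that reached 10 counts in both libraries of the inhibited group alone can hardly be lower in both inhibited libraries. Of all tested genes, 9.78% were of this kind. These shares therefore support no direction either. Without DMSO 1, the median of the same 27 genes was 0.11, with 17 genes above 0 and 10 below. Both inhibited libraries were then above DMSO 2 for 11 genes (background 37.2%) and below it for 8 (background 38.0%). DMSO 1 was the lowest library for 13 of the 27 genes (48.1%, against 41.3% of all tested genes). Medians by class were 0.67 for 2 H1 genes, 0.40 for 9 H2A, 0.41 for 6 H2B, 0.41 for 5 H3 and 1.29 for 5 H4 genes, and without DMSO 1 those of the same genes were 1.49, -0.21, 0.48, 0.11 and 1.37. The count of higher genes in each class was 2 of 2, 5 of 9, 4 of 6, 5 of 5 and 5 of 5. Genes of every class were among the 12 that reached 10 counts in both libraries of the inhibited group alone. In H3 they were Hist1h3e, Hist1h3f, Hist1h3g and Hist2h3b, and in H4 Hist1h4a, Hist1h4c and Hist1h4d. The medians and counts by class therefore support no direction.

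**Figure D4:**
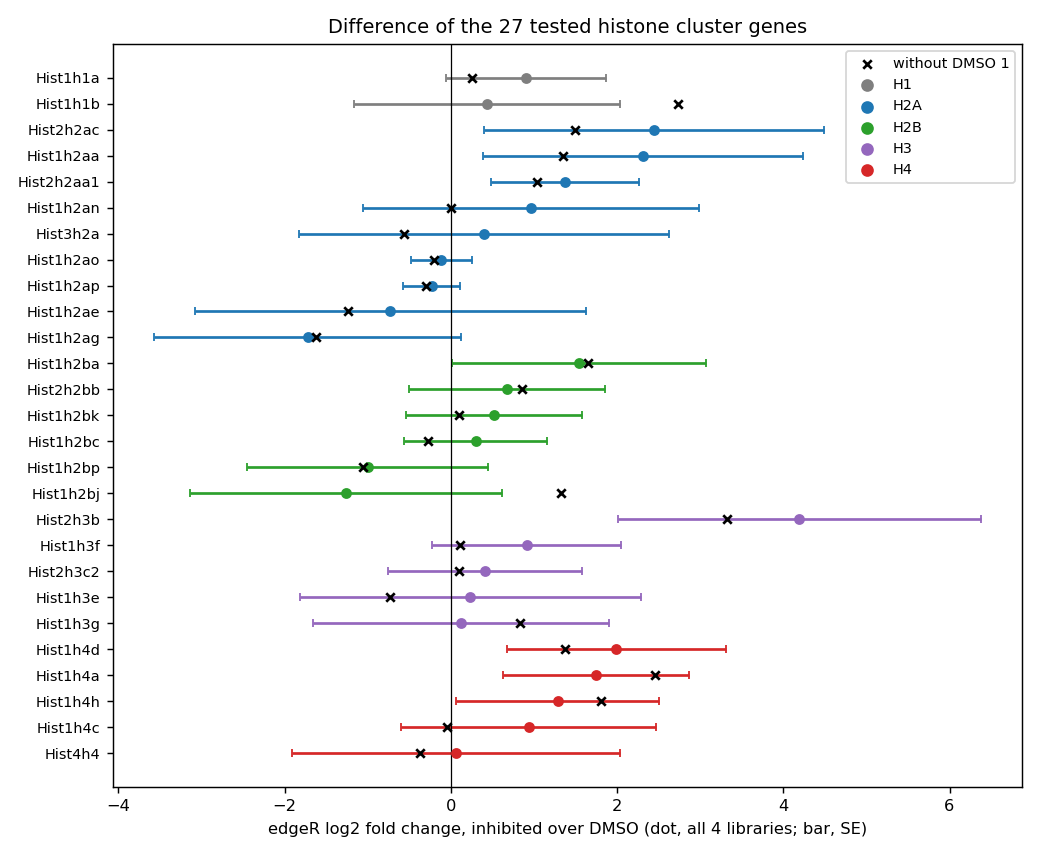
log2 fold change, inhibited over DMSO, of the 27 tested genes by edgeR with all 4 libraries (dots coloured by class, bars are SE) and without DMSO 1 (crosses). The 2 genes with short bars are Hist1h2ao and Hist1h2ap, and the cross lies on the other side of 0 for Hist1h2bj, Hist1h2bc, Hist1h3e, Hist1h4c, Hist3h2a and Hist4h4.

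H4 is the most conserved core histone and pairs with H3. Hist1h4c, the H4 gene of highest level, had 0 counts in DMSO 1 and 114, 136 and 111 counts in DMSO 2, inhibited 1 and inhibited 2. Its level was therefore 0, 6.04, 6.31 and 5.30 CPM, and only DMSO 1 differed. The log2 fold change was 0.94 ± 1.53 (SE, edgeR adjusted p = 0.783) with all libraries and -0.044 without DMSO 1. Without DMSO 2 it was the 1 histone gene called, at an edgeR adjusted p of 0.00215, where 14.6% of all tested genes were called higher and 14.1% lower. The inhibited mean was then at least 32.3-fold higher than 3 counts in DMSO 1.

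Hist1h4d had 0.240, 0.847, 2.46 and 1.91 CPM in DMSO 1, DMSO 2, inhibited 1 and inhibited 2. The groups did not overlap, and the log2 fold change was 1.99 ± 1.32 (SE, edgeR adjusted p = 0.468). Hist1h4a had 1.08, 0.477, 2.60 and 2.62 CPM, also without overlap, with a log2 fold change of 1.74 ± 1.12 (SE, edgeR adjusted p = 0.458). Here DMSO 2, not DMSO 1, was lowest, and without DMSO 1 both stayed above 0. Hist1h4h had 1.08, 0.582, 1.39 and 2.67 CPM with a log2 fold change of 1.29 ± 1.22 (SE, edgeR adjusted p = 0.611). Per length, Hist1h4c had a mean of 39.6 FPKM, Hist1h4d 12.7, Hist1h4a 9.28 and Hist1h4h 8.65.

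H3 carries many of the marked residues of chromatin. Hist2h3b had the smallest p of the histone genes, with 0 and 2 counts in the DMSO libraries and 24 and 23 in the inhibited ones. It was named for this p and passed the filter through the inhibited libraries alone, which favours a higher value there. The ratio of summed counts per library size was 19.7, and edgeR gave an adjusted p of 0.384. A counting interval of 5.15 to 167 holds neither the spread between pools nor this choice, so it supports no difference. All 150-base stretches of the Hist2h3b transcript are also found in another gene, and its coding part is 99.8% identical to that of Hist2h3c2. The interval does not hold the division of reads between such copies. Hist2h3c2 had 1.08, 1.80, 3.02 and 0.811 CPM, with the lowest and the highest value both in inhibited embryos. Hist1h3f had 0.359, 2.75, 2.60 and 3.29 CPM, where DMSO 1 alone was low. Hist1h3e had 0, 1.27, 0.742 and 0.763 CPM, and its log2 fold change of 0.24 became -0.74 without DMSO 1.

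Among the other H2A genes, Hist2h2aa1 had 1.02, 1.80, 4.13 and 3.20 CPM, without overlap of the groups. Its log2 fold change was 1.37 ± 0.89 (SE, edgeR adjusted p = 0.459). Its copy Hist2h2aa2 was listed at 0 in all libraries, although the coding parts are the same, so the counts cannot be assigned to either copy alone. Hist1h2ag had 0.838, 0.741, 0.278 and 0.191 CPM, lower in both inhibited libraries, with a log2 fold change of -1.72 ± 1.85 (SE, edgeR adjusted p = 0.656).

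Hist1h2aa and Hist1h2ba are the germline members, which face each other on chromosome 13 with 305 bases between them and encode the H2A and H2B known from testis and egg. Hist1h2aa had 0, 0.688, 2.88 and 0.620 CPM, with overlap of the groups, and inhibited 1 was the highest. Hist1h2ba had 0.479, 0.424, 0.696 and 1.96 CPM without overlap, and here inhibited 2 was the highest. The log2 fold changes were 2.31 ± 1.93 for Hist1h2aa and 1.54 ± 1.53 for Hist1h2ba (SE, edgeR adjusted p = 0.560 and 0.628). The sperm and testis markers given above also had their highest sum, 7.70 CPM, in inhibited 1. Their part in these values was not tested.

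Of the H2B genes, Hist1h2bc had the highest level, a mean of 8.82 FPKM, followed by Hist1h2bk with 8.10 FPKM and Hist2h2bb with 6.38 FPKM. Hist1h2bc had 1.44, 4.45, 2.97 and 4.29 CPM, and Hist1h2bk had 0.958, 2.01, 2.64 and 1.62 CPM. Their groups overlapped. Hist2h2bb had 1.20, 0.953, 1.58 and 1.86 CPM without overlap, with a log2 fold change of 0.67 ± 1.18 (SE, edgeR adjusted p = 0.801). Hist1h2bp was lower in both inhibited libraries, with 1.26, 1.38, 0.974 and 0.334 CPM and a log2 fold change of -1.0 ± 1.45 (SE, edgeR adjusted p = 0.754). Hist1h2bj had 1.80, 0.159, 0.186 and 0.620 CPM, and its log2 fold change of -1.26 became 1.33 without DMSO 1.

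H1 is the smallest class, and 2 of its 6 genes were tested. Hist1h1a had 0.958, 3.71, 2.41 and 6.34 CPM, and Hist1h1b had 1.44, 0.159, 1.35 and 0.811 CPM. Both overlapped between groups, with log2 fold changes of 0.90 ± 0.96 and 0.44 ± 1.6 (SE), which became 0.26 and 2.73 without DMSO 1. Hist1h1c, a somatic H1, had counts in the inhibited libraries alone, 2 and 5, which is too few to test.

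A list of 50 genes of histone mRNA synthesis, 3′ end formation and turnover was read beside the histone genes, of which 48 were tested. Its median log2 fold change was -0.40, with 33 genes below 0 and 15 above. At an unadjusted p under 0.05, edgeR gave 8 lower genes (background 10.1%) and 1 higher gene (background 4.72%), and no gene passed the adjusted threshold. The groups did not overlap for 22 lower (background 28.3%) and 9 higher genes (background 28.9%). Without DMSO 1 the median was -0.20. DESeq2 on the same genes called 4 of them lower (background 3.54%), the poly(A) cleavage factors Cstf2t and Cstf3, the cap-binding protein Ncbp1 and the transcription factor Creb1.

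The genes particular to histone mRNA had fold changes on both sides of 0. Slbp, the stem-loop binding protein, was at 757, 1062, 943 and 995 CPM in DMSO 1, DMSO 2, inhibited 1 and inhibited 2, with a log2 fold change of 0.09 ± 0.38 (SE, edgeR adjusted p = 0.921). Lsm11, a subunit of the U7 snRNP, was at 1.98, 2.54, 8.72 and 7.30 CPM, higher in both inhibited libraries, with a log2 fold change of 1.82 ± 0.65 (SE, edgeR adjusted p = 0.333). Lsm10, its partner in the U7 snRNP, was at 72.3, 131.5, 168.9 and 127.9 CPM, and the groups overlapped. Zfp473, which takes part in histone pre-mRNA cleavage, was at 2.58, 6.57, 7.79 and 9.78 CPM.

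Npat, the activator of histone transcription in S phase, was at 143.4, 108.2, 96.1 and 104.7 CPM, and Casp8ap2, which acts in the same nuclear bodies, at 755.6, 671.8, 565.4 and 550.7 CPM. Both were lower in both inhibited libraries, with log2 fold changes of -0.33 ± 0.36 and -0.36 ± 0.36 (SE, edgeR adjusted p = 0.664 and 0.631). Hinfp, the H4 promoter factor, was at 12.5, 11.1, 4.36 and 11.7 CPM and overlapped. Eri1, the exonuclease that trims histone mRNA ends, was at 63.5, 16.6, 13.3 and 22.8 CPM, where DMSO 1 alone was high. Creb1 was at 53.2, 18.1, 5.52 and 5.72 CPM (log2 fold change -2.66 ± 0.62, edgeR adjusted p = 0.333) and Cstf3 at 114.1, 94.8, 38.0 and 42.4 CPM (-1.38 ± 0.37, edgeR adjusted p = 0.333). Lsm1, of the decay complex, was higher in both inhibited libraries, at 78.4, 66.3, 146.2 and 109.0 CPM.

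A second list held 36 histone chaperones and import factors, of which 35 were tested. Its median log2 fold change was -0.57, with 25 genes below 0 and 10 above, and -0.33 without DMSO 1. At an unadjusted p under 0.05, edgeR gave 6 lower genes (background 10.1%) and 1 higher gene (background 4.72%), and 0 were called. The groups did not overlap for 21 lower (background 28.3%) and 5 higher genes (background 28.9%). DESeq2 on the same genes called Ipo5 and Set lower (background 3.54%). Ipo5, an importin of histones, was at 504.7, 223.4, 112.7 and 127.6 CPM, and Set, a chaperone, at 2061, 785.9, 477.8 and 577.8 CPM. Npm2, the chaperone that remodels sperm chromatin in the egg, was at 58.6, 116.2, 212.0 and 164.1 CPM, higher in both inhibited libraries. Dnajc9, an H3 and H4 chaperone, was at 23.2, 28.0, 36.0 and 43.2 CPM.

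**Figure D5:**
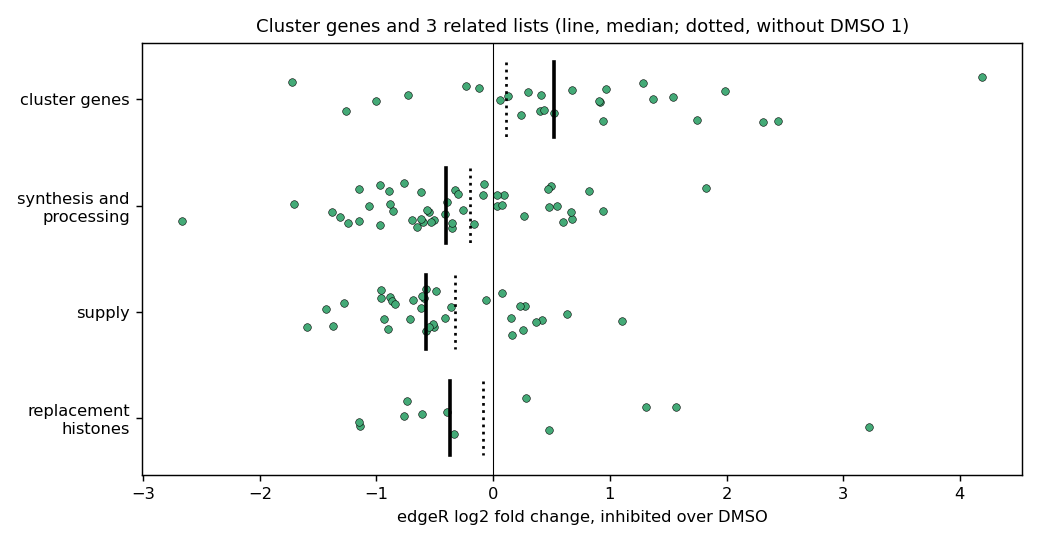
edgeR log2 fold change, inhibited over DMSO, of the tested genes of 4 sets, with 1 point for each gene and a random vertical offset. Solid lines are medians with all libraries (0.52, -0.40, -0.57 and -0.37 from top to bottom) and dotted lines medians without DMSO 1.

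In these poly(A) libraries, replacement histones had far higher levels per length than the cluster genes. The mRNAs of cluster genes normally carry no poly(A) tail, so the ratios do not compare the whole mRNA pools of the embryo. Summed over 18 listed genes they were at 13314, 8554, 6367 and 7433 FPKM, or 13.5, 6.03, 5.40 and 5.47 times the sum of the cluster genes in the same library. H2afz was at 4515, 2485, 1926 and 2278 CPM, H3f3a at 3678, 1742, 1137 and 1322 CPM and H3f3b at 6190, 3555, 2808 and 2925 CPM. In these 3 genes DMSO 1 was the highest library, whereas it was the lowest in the summed levels of each class of cluster genes, the H2A pair left out. Of the 12 tested genes of the list, edgeR called 0, while an unadjusted p under 0.05 was given for 2 higher genes (background 4.72%) and 1 lower (background 10.1%). Cenpa, the centromeric H3, was at 1040, 416.7, 274.6 and 382.4 CPM, and H2afv at 357, 208.0, 215.7 and 213.7 CPM. H1foo, the linker histone of the egg, was at 34.3, 158.2, 114.2 and 120.3 CPM, low in DMSO 1 alone.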

How the data were processed

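Poly(A) RNA of 4 pools of 10 embryos was amplified with a SMART-Seq v4 kit and sequenced in pairs of 150 bases. The authors aligned reads to mm10 with STAR 2.7.10, kept uniquely mapped reads and made gene tables with RSEM 1.3.3. The deposited tables give, for each gene symbol, the expected count, TPM and FPKM. Whether counting used strand is not given in the sources used here. TPM values in the deposited tables and FPKM values made by the authors were used for levels and for alternatives.

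Expected counts were rounded and tested with edgeR 4.0.16 (R 4.3.3) by glmQLFit and glmQLFTest with robust options, TMM factors and filterByExpr (at least 10 counts, 15 in total), which left 13549 genes, with Benjamini-Hochberg adjustment over all of them. A call needed |log2 fold change| above 1 and adjusted p below 0.05, as in the study's methods, which used DESeq2. The common biological coefficient of variation was 0.557. DESeq2 1.42.0 and limma 3.58.1 on log2(FPKM + 1) or log2(FPKM + 0.1) were alternatives. The fits were tested on simulated data.

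Genes named are the 3 of highest mean FPKM in each class, the germline members, the 4 of smallest p in each direction, every member an alternative called, and fixed or smallest-p genes of the lists. Members and lists were chosen with earlier results of these data known. Promoters are from RefSeq (GRCm38.p6), transcripts from GENCODE vM21. No sequence of a protein was used here.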

Additional observations from a re-analysis of the deposited data

How the results depend on the processing

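All values rest on low counts from 2 pools a group. Hist1h2ao and Hist1h2ap excepted, each histone gene had at most 136 counts in any library. No count of called histone genes changed under another tool, scaling, filter or the replicate block, and without any 1 library the count of higher genes ran from 0 to 1 (Hist1h4c without DMSO replicate 2). With DESeq2 on the same genes, the calls of lower genes were 4 for the synthesis list and 2 for the supply list (background 3.54%). They were 3 and 1 with DESeq2 on all genes with a count, and 2 and 1 with no filter. The background of these 2 fits was not counted. Leaving out 1 library leaves a single library in its group, so for both lists only the medians of these fits are given below.

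The median log2 fold change of the histone genes (0.52) was 0.92 when DESeq2 took every gene with a count, 0.76 and 1.13 with limma on log2(FPKM + 1) and log2(FPKM + 0.1), and 0.91 with no filter. Its direction was the same in each, and other sets of genes enter these fits. For H1 (0.67) the same DESeq2 fit gave 0.92, and values were 1.13 with limma on log2(FPKM + 0.1), 0.91 with no filter and 0.92 with at least 10 counts in every library. For H2A (0.40) it was -0.091 with at least 10 counts in every library. For H2B (0.41) it was 0.0077 with limma on log2(FPKM + 1), 0.30 with no filter and 0.54 with at least 10 counts in every library. For H3 (0.41) that DESeq2 fit gave 1.57, and values were 0.93 and 1.93 with limma, and 2.0 with no filter. For H4 (1.29) that DESeq2 fit gave 1.71, and values were 1.6 and 2.30 with limma, 1.46 with library totals alone, 1.65 with no filter and 1.32 with at least 10 counts in every library. For the synthesis list (-0.40) it was -0.25 with library totals alone, and for the supply list (-0.57) -0.32 and -0.38 with limma. Library totals alone moved the median of all tested genes from 0.04 to 0.17.

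The sources used here do not say whether same-numbered libraries belong together. Their deviations from the group means correlated at -0.0925. With 2 libraries in a group, both pairs give this same value by design, so it cannot decide the question. With the replicate block the medians were 1.04 for all histone genes, 1.04 for H1, 1.41 for H2A, 0.53 for H2B, 1.48 for H3 and 1.84 for H4, and 0 histone genes were called.

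Leaving out 1 library and testing the genes that then passed the filter, the median ran from 0.54 to 1.21 for all histone genes, from 0.40 to 1.49 for H1, -0.10 to 0.98 for H2A, 0.16 to 1.08 for H2B, 0.29 to 4.96 for H3 and 1.37 to 2.33 for H4, and from -0.53 to -0.20 and -0.76 to -0.33 for the synthesis and supply lists. The log2 ratio of summed levels ran from 0.015 to 0.56 for H2B, 0.42 to 1.96 for H3 and 0.68 to 2.33 for H4. The log2 ratio for all histone genes (-0.03) was 0.16 in TPM and 0.83 without Hist1h2ao and Hist1h2ap, and for H2A (-0.15) 0.037 in TPM and 1.03 without the pair. The sums without the pair and the counts of separate groups without DMSO replicate 1 were chosen after seeing the data. Those counts were 8 lower histone genes (background 38.0%), against 3 with all libraries (background 28.3%). For higher supply genes they were 8 (background 37.2%), against 5 (background 28.9%). In TPM, 14 lower synthesis genes were apart, against 22 in CPM (background 28.3%), and the background in TPM was not counted.

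Leaving out 1 library turned the sign of the log2 fold change of 12 named genes, with DMSO replicate 1 left out for Hist1h2bc, Hist1h2bj, Hist1h3e, Hist1h4c, Eri1, H1foo, H2afv and Slbp, DMSO replicate 2 for Hist1h1b, and inhibited replicate 1 for Hist1h2ao, Hist2h3c2 and Hinfp. The ranges were -0.42 to 2.73 for Hist1h1b, -0.38 to 0.14 for Hist1h2ao, -0.28 to 1.33 for Hist1h2bc, -2.36 to 1.33 for Hist1h2bj, -0.74 to 6.90 for Hist1h3e, -0.044 to 9.84 for Hist1h4c, -0.78 to 1.06 for Hist2h3c2, -1.82 to 0.14 for Eri1, -0.42 to 1.77 for H1foo, -0.74 to 0.060 for H2afv, -1.43 to 0.039 for Hinfp and -0.12 to 0.35 for Slbp. Without DMSO replicate 2, the values of Hist1h4c and Hist1h3e, and medians that hold such genes, are fitted against 0 counts and are no bounds. With library totals alone, Hist1h2ao was at 0.012. A split by annotated length gave no value, since no gene of at least 1000 bases was tested.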
